A study of Mus musculus with 6 samples.

Results

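A set of 42 genes that encode DNA damage kinases and DNA repair proteins was followed in mouse macrophages, out of 21878 genes in the count table. The genes were taken by symbol, and all 42 had a row. They comprise 4 damage signalling kinases, 12 genes of homologous recombination, 5 of the Fanconi pathway, 5 of end joining, 2 of mismatch repair, 4 of nucleotide excision and 10 of base excision with single-strand break repair. The macrophages were grown from wild-type C57BL/6 bone marrow in 50 ng/mL of the growth factor M-CSF. All of them first spent 48 h in a transwell (0.4 µm pores) beside LLC cells, which derive from a mouse lung carcinoma. After a medium change they received either 100 µg/mL β-elemene, a plant sesquiterpene, or PBS in equal volume, and were collected 24 h later, with 3 libraries per group. Macrophages without tumour cells were not analysed here, so both groups carry the tumour-cell conditioning.

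DNA damage is sensed by the kinases ATM, which answers to double-strand breaks, and ATR, which answers to single-stranded DNA, and these pass the signal to CHK2 and CHK1. Double-strand breaks are mended by homologous recombination, which copies an intact sister strand and works mainly in S and G2 phase, or by end joining, which works through the whole cycle. Excision pathways remove damaged or mispaired bases and bulky lesions, and many recombination and mismatch genes are known as targets of E2F factors in dividing cells. In macrophages, nitric oxide and reactive oxygen made during activation are known sources of oxidised and deaminated bases, the substrates of base excision repair.

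Total counts ranged from 18916844 to 20729887 per library, and levels are given in CPM (counts divided by the scaled library size) after TMM scaling, which corrects for unequal library composition. The TMM factors differed between the groups, from 1.24 to 1.26 under PBS and from 0.794 to 0.812 under β-elemene. A log2 fold change is β-elemene over PBS with its standard error (SE). A gene was called higher or lower at an adjusted p under 0.05 in edgeR's quasi-likelihood test with Benjamini-Hochberg adjustment over 11459 genes. The labels do not say that replicates came from separate cultures, so the p-values cover the spread among these 6 libraries only, which could be technical. Of the 9 macrophage markers, Lyz2, a lysozyme, was the most abundant at means of 9203 ± 398 CPM (β-elemene) and 6776 ± 378 CPM (PBS) (SD, n = 3). The 9 markers summed to 16659 to 17216 CPM with β-elemene and 13565 to 14569 with PBS, with 6 of them higher and 3 lower (3 higher and 5 lower with library size alone). The 7 LLC or epithelial markers summed to 0.062 to 0.195 CPM with β-elemene and 0 to 0.194 with PBS, with Krt19 and Cldn4 at 0 counts throughout and Cldn7 the most abundant. Fibroblast markers were low and lower with β-elemene (1.69 to 3.88 against 13.2 to 17.2 CPM). Neutrophil markers were low, with a higher sum (27.0 to 30.4 against 10.2 to 14.4). By the mean of both groups Col1a2 and S100a8 led these lists. With PBS alone Col3a1 (4.87 CPM) and S100a9 (4.33) were highest, and with β-elemene alone Dcn (1.21) and S100a8 (15.8). Of the 7 neutrophil markers 4 rose, 2 were not tested and Mpo fell, at 0.145 CPM against 1.54. T or NK cell, B cell and dendritic cell markers summed to 0.246 to 0.429, 0.984 to 1.90 and 0.552 to 1.91 CPM with β-elemene. With PBS they summed to 0.077 to 0.117, 1.94 to 4.45 and 7.58 to 8.07. Ncr1, Cd79b and Cd209a led by the mean of both groups, but Zbtb46 (0.691 CPM) was the highest dendritic cell marker with β-elemene. The part of these low levels in the results was not tested.

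Most of the repair genes were lower in the β-elemene libraries. Of 41 tested genes, 32 fell, 6 rose and 3 did not pass, and the one that was not tested, Rad51c, had too few counts. Over all genes, 76.7% were called, 40.2% lower and 36.6% higher, so a call in itself is the common outcome in this comparison. The median log2 fold change was -1.14 over the 41 repair genes and -0.06 over all genes tested. At least 2-fold falls were seen in 26 of the 41 and at least 2-fold rises in 3, against 18.3% and 17.0% of all genes (35.3% for both directions). Libraries of one group lay entirely above those of the other in 39 of the 41, against 79.9% of all genes. Falls came from every class, and the 6 genes that rose were Atm, Nbn, Fanca, Xrcc4, Polb and Tdg. In these bulk samples, fewer cells that express a gene and less of its RNA per cell cannot be told apart.

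**Figure D1:**
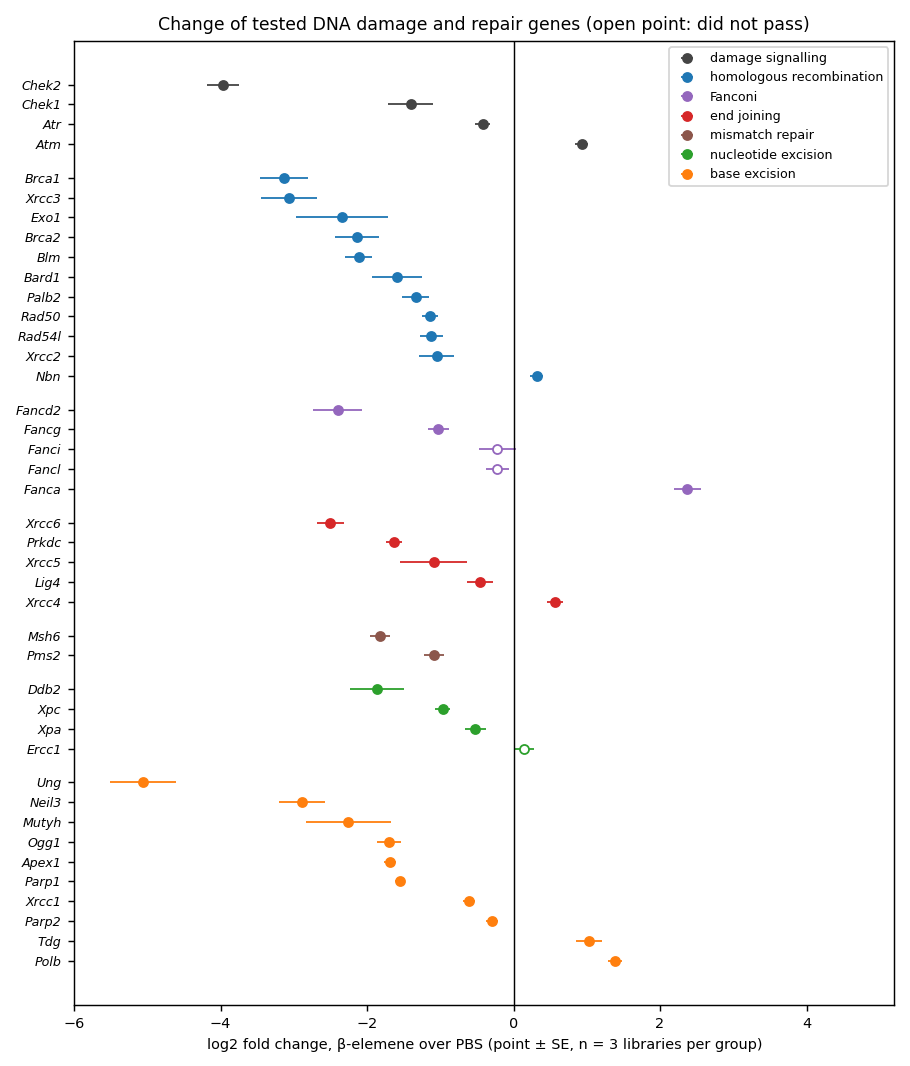
Log2 fold change (β-elemene over PBS, x axis) of the 41 tested genes by class, as points with their SE, from 3 libraries per group. Filled points passed the test and open points (Fanci, Fancl and Ercc1) did not. Points run from -5.06 for Ung to 2.37 for Fanca, and 32 filled points lie below 0.

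The balance between falls and rises rested little on the scaling among these genes but strongly on it among all genes. When library size alone replaced TMM, which moved the median of all genes to -0.70, 36 of the repair genes fell and 4 rose, while 8003 of all genes fell and 2166 rose. With the upper quartile, 33 fell and 5 rose, against 6528 and 2947 of all genes.

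Genes of the dividing cell were lower in the same libraries. All 15 G2 and mitosis markers fell, with a median of -2.27. Their summed levels were 99.4 to 106.0 CPM with β-elemene against 259.2 to 321.6 with PBS. Bub1b (-4.26) and Cenpf (-3.81) fell most. Mki67, the most abundant of them at means of 62.5 CPM with β-elemene and 108.6 with PBS, fell least (-0.80). Of 15 S phase markers 10 fell, 1 rose and 4 did not pass, with a median of -1.41, and Mcm2 and Rrm2 fell by 2.90 and 2.39 on the log2 scale. Pcna, the sliding clamp, did not pass, at 325.9 ± 4.25 CPM against 305.5 ± 18.4 (log2 fold change 0.09), and Tyms, thymidylate synthase, rose by 0.69, a rise that both the upper quartile and library size alone removed (0 up under each). The part of cell division in the levels of the repair genes was not tested.

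Reads of some of these genes can be shared with a neighbour or a copy. In the GENCODE annotation of the same build, 7 of the 42 share at least 10% of their exonic bases with a gene on the opposite strand, and the strand setting of the counting is not given in the sources used here. They are Apex1 (61.7%, with Pip4p1), Ddb2 (23.8%, with Acp2), Fanci (16.0%, with Polg), Rad54l (15.4%, with Lrrc41), Fancl (13.7%, with Vrk2), Ogg1 (10.6%, with Camk1) and Fanca (10.5%, with Zfp276). Transcripts of Tdg and Msh6 match processed pseudogenes, Tdg at 98.7% identity over 84.8% of its length and Msh6 at 94.1% over 44.0%. Values of these 9 genes are uncertain for that reason. Without them, in a check chosen after seeing the data, 27 of 32 tested genes fell and 4 rose, with a median log2 fold change of -1.24.

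Promoter sequence from RefSeq (GRCm38.p6) was found for 33 of the 42 genes. It was searched over the 250 bases before the start site of each entry, on both strands, and that site need not be the outermost one of the gene. An E2F word (TTTCCCGC, TTTGGCGC, TTTCGCGC or TTTGCCGC) was found in 5 of the 33 (15.2%), against 378 of 9246 tested genes with an entry (4.09%). Of all 27025 genes with an entry, 2.16% had one. The 5 are Chek2, Brca2, Bard1, Fancg and Xrcc6, all of which fell, as did 25 of the 33 genes with an entry. The CHR element (TTTGAA or TTCGAA), known from mitotic genes, was found in 4 of 33 (12.1%), against 14.8% of tested genes. CCAAT was found in 48.5% against 41.0%, the interferon response word (GAAA and GAAA, 2 bases apart) in 12.1% against 3.47%, and the NF-kB word (GGG and CC, 5 bases apart) in 54.5% against 66.4%. The 4 genes with a CHR element and the 4 with an interferon word were likewise all among those that fell, so that direction is not particular to the E2F word. In Fancg the interferon word overlaps the E2F word. These are matches of letters and not bound sites. No entry was used for Rad50, Nbn, Exo1, Xrcc2, Fancd2, Prkdc, Xpc, Ddb2 and Polb.

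The 5 promoters with an E2F word are shown so that the word can be seen in its context, with its letters in capitals. They lie at chr5:110839733-110839982 (plus strand) for Chek2, chr5:150522371-150522620 (plus strand) for Brca2, chr1:71102973-71103222 (minus strand) for Bard1, chr4:43010302-43010551 (minus strand) for Fancg and chr15:82016119-82016368 (plus strand) for Xrcc6. The word begins 152 bases before the start site of the entry in Chek2, 168 in Brca2, 209 in Bard1, 52 in Fancg and 46 in Xrcc6. Each sequence ends at the base before that start site. The listed gene begins further upstream, at 110839800 for Chek2, 150522297 for Brca2, 71103141 for Bard1, 43010567 for Fancg and 81987833 for Xrcc6. The printed stretches therefore lie partly (Chek2, Bard1) or wholly (Brca2, Fancg, Xrcc6) inside the gene, and other start sites were not searched.
Chek2: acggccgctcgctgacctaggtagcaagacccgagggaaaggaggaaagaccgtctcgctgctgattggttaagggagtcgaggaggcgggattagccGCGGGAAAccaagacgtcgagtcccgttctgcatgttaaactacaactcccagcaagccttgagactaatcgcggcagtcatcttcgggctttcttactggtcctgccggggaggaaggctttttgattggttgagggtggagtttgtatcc
Brca2: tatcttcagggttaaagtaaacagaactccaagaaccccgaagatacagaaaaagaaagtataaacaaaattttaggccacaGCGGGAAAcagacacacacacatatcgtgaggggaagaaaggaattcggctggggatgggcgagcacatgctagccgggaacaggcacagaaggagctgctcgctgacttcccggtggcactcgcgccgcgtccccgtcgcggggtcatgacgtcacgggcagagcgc
Bard1: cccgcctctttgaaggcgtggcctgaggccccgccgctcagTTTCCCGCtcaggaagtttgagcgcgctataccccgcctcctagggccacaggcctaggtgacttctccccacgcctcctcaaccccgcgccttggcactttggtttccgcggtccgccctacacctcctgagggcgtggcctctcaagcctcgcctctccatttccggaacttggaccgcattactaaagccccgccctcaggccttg
Fancg: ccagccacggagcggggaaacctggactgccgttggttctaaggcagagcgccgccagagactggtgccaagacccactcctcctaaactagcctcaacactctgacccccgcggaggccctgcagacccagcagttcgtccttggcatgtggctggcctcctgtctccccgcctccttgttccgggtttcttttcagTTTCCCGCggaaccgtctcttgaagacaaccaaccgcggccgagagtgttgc
Xrcc6: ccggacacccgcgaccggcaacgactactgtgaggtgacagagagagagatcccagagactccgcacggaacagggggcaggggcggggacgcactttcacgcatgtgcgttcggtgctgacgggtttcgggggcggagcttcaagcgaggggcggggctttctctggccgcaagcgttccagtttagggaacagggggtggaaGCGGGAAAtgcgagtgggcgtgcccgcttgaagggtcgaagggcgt

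Among the damage signalling kinases, the 2 kinases at the top of the cascade went opposite ways and both checkpoint kinases fell. Atm (chromosome 9, 53437122 to 53536828, GRCm38.p6) stood at 29.0, 25.6 and 29.0 CPM in PBS libraries 1, 2 and 3 and at 53.4, 46.9 and 59.3 in β-elemene libraries 1, 2 and 3. It rose by 0.93 on the log2 scale (SE 0.09, edgeR adjusted p = 4.80e-07), and all β-elemene libraries lay above all PBS libraries. Atr stood at 21.5, 18.3 and 23.9 CPM with PBS and 15.8, 15.4 and 16.3 with β-elemene, with a log2 fold change of -0.42 (its SE 0.10, edgeR adjusted p = 0.0021). The groups for Atr did not overlap, but the nearest libraries, at 18.3 and 16.3 CPM, lay close together.

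Chek2 (chromosome 5, 110839800 to 110874140), which encodes the kinase CHK2 downstream of ATM, showed the deepest fall of this class. It stood at 9.53, 8.43 and 9.79 CPM with PBS and 0.492, 0.846 and 0.429 with β-elemene, that is, 714 counts with PBS and 28 with β-elemene. This was a 15.7-fold fall (log2 fold change -3.97, SE 0.22, edgeR adjusted p = 1.70e-09), and 1.51% of all genes tested had as low a value or lower. Chek1, the kinase downstream of ATR, was scarce in both groups, at 1.67, 1.40 and 1.44 CPM against 0.615, 0.521 and 0.552. It fell by 1.41 on the log2 scale (SE 0.31, edgeR adjusted p = 0.0010), from 116 counts to 27. Within the class, Atm was thus the gene that rose and Chek2, downstream of it, the gene that fell most.

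Of the 20 other signalling genes on a list of the remaining pathway members, 12 fell, 6 rose and 2 did not pass, with a median of -0.60. Clspn, the adaptor by which ATR activates CHK1, went from 6.63 ± 1.88 to 0.538 ± 0.206 CPM (SD, n = 3), a log2 fold change of -3.60. H2afx, the histone variant that is phosphorylated around breaks, fell by 1.79. Timeless, a fork protection and clock protein, rose by 3.27 on the log2 scale (SE 0.12), with 3.90 ± 0.281 CPM under PBS and 37.5 ± 5.47 CPM under β-elemene, while Tipin, its binding partner at the fork, fell by 1.27. Rad9a, part of the ring-shaped clamp that activates ATR, rose by 0.55, a rise that is smaller than the shift between TMM and library size alone. The split was 1 up and 17 down under library size alone, and 3 up and 13 down under the upper quartile.

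In homologous recombination nearly every gene fell. Of its 11 tested genes, 10 fell, each at least 2-fold, and Nbn rose, with a median log2 fold change of -1.59. Brca1 (chromosome 11, 101488761 to 101551955), which commits breaks to recombination, stood at 6.93, 4.16 and 6.04 CPM with PBS and 0.369, 0.521 and 1.04 with β-elemene. It fell 8.76-fold (log2 fold change -3.13, SE 0.33, edgeR adjusted p = 1.74e-06), with no PBS library under 4.16 CPM and no β-elemene library over 1.04. Bard1, its obligate binding partner, was scarcer, at 1.78, 1.75 and 1.79 CPM against 0.308, 0.846 and 0.613, and fell by 1.59 on the log2 scale (SE 0.34).

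Brca2, a mediator of strand exchange, stood at 3.37, 2.53 and 3.51 CPM with PBS and 0.923, 0.391 and 0.797 with β-elemene, and fell by 2.14 on the log2 scale (SE 0.30). Blm, the Bloom helicase that dissolves joined strands, stood at 7.94, 6.18 and 7.41 CPM against 1.60, 1.82 and 1.53, and fell by 2.12 (SE 0.18). For both genes every β-elemene library lay below every PBS library. Palb2, which bridges BRCA1 and BRCA2, fell by 1.34, Rad54l, a motor protein of strand exchange, by 1.13, and Xrcc2, a further strand exchange factor, by 1.05. Xrcc3, which acts at the same step, fell by 3.06 on the log2 scale, with 138 counts under PBS and 10 under β-elemene.

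Exo1, an exonuclease of end resection that serves mismatch repair too, fell by 2.34 (SE 0.63, edgeR adjusted p = 0.0054), with 0, 2 and 12 counts in β-elemene libraries 1, 2 and 3. Its log2 fold change was -4.44 without β-elemene replicate 3 and -1.74 without β-elemene replicate 1. Rad51c, which was not tested, had 43 counts in all with PBS and 2 with β-elemene. After TMM scaling that is a ratio of 13.4 in favour of PBS, with a 95% counting interval of 3.48 to 113.7 that covers counting error only.

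Rad50 and Nbn, which encode parts of the MRN complex that first binds a break, moved apart. Rad50 stood at 21.9, 24.0 and 23.5 CPM with PBS and 9.35, 12.2 and 9.93 with β-elemene, and fell by 1.14 on the log2 scale (SE 0.11). Nbn stood at 15.6, 17.0 and 14.4 CPM with PBS and 18.2, 19.5 and 20.7 with β-elemene. Its log2 fold change was 0.31 (SE 0.09, edgeR adjusted p = 0.0081), but it was -0.0022 with the upper quartile and -0.32 with library size alone. Mre11a, the nuclease of the complex, was not among the 42 and stood at 23.5 ± 1.05 CPM against 21.05 ± 1.16 (SD, n = 3; log2 fold change 0.16, edgeR adjusted p = 0.084). The transcripts of the 3 subunits therefore fell, rose slightly or did not pass.

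In the rest of the recombination list, 9 of 23 tested genes fell, 6 rose and 8 did not pass, and the median of -0.07 was near that of all genes. Rad51ap1, a cofactor of strand exchange, and Dna2, a resection nuclease, fell by 1.61 and 1.57 on the log2 scale. Rbbp8, which encodes the resection factor CtIP, rose by 1.82 on the log2 scale (SE 0.09), with 10.3 ± 1.32 CPM under PBS and 36.5 ± 0.639 under β-elemene, and Wrn, the Werner helicase, rose by 1.11 (SE 0.07). Under library size alone the split was 2 up and 17 down, and under the upper quartile 3 up and 13 down.

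**Figure D2:**
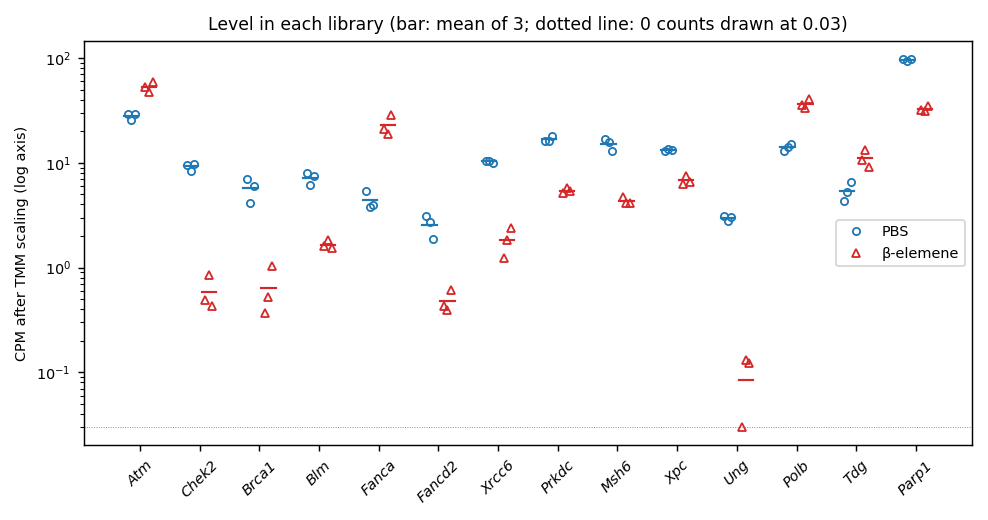
CPM on a log axis for 14 of the genes in each of the 6 libraries (circles PBS, triangles β-elemene, bars the mean of 3, a library with 0 counts drawn on the dotted line). The triangles lie below the circles for 10 genes and above them for Atm, Fanca, Polb and Tdg, and no gene shown has overlapping groups.

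Genes of the Fanconi pathway, which unhooks crosslinks between DNA strands, moved in both directions, as genes did in general. Of its 5 genes, 2 fell (40%), 1 rose (20%) and 2 did not pass, against 40.2% lower and 36.6% higher of all genes tested. The share that fell was thus that of all genes. Fanca (chromosome 8, 123266294 to 123318651), a subunit of the core complex that marks FANCD2 with ubiquitin, stood at 5.38, 3.81 and 3.98 CPM with PBS and 21.2, 18.7 and 28.3 with β-elemene. It rose 5.18-fold (log2 fold change 2.37, SE 0.18, edgeR adjusted p = 3.88e-07), the largest rise among the 42 genes, and stood above 93.5% of all genes tested. Zfp276, which shares exonic bases with Fanca on the other strand, rose by 0.37 on the log2 scale.

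Fancd2, the substrate of that complex, went the other way, at 3.10, 2.72 and 1.87 CPM against 0.431, 0.391 and 0.613, and fell by 2.40 on the log2 scale (SE 0.34, edgeR adjusted p = 2.01e-05). Fancg, another core subunit, stood at 8.10, 10.5 and 8.34 CPM against 4.37, 4.56 and 4.29, and fell by 1.03 (SE 0.15). Fanci, the binding partner of FANCD2, did not pass, at 1.86, 1.48 and 2.07 CPM against 1.35, 1.56 and 1.72 with overlapping groups (log2 fold change -0.22, 95% interval -0.77 to 0.33). Fancl, the ubiquitin ligase of the core, did not pass either, with a 95% interval of -0.56 to 0.11. Vrk2, which overlaps Fancl on the other strand, rose by 2.37 on the log2 scale, and its part in the value of Fancl was not tested. With library size alone Fanci and Fancl both fell, by 0.86 each.

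Of 12 further Fanconi genes, 7 fell, 2 rose and 3 did not pass, with a median of -0.51. Fancb, a core subunit, and Fan1, a crosslink nuclease, fell by 2.30 and 1.82 on the log2 scale. Fancc, a core subunit, rose by 0.91 (SE 0.23) and Wdr48, the partner of the deubiquitinase USP1, by 0.47 (SE 0.06). Both rises were lost under library size alone (0 up, 11 down), and the upper quartile gave 2 up and 9 down.

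In end joining, 4 of 5 genes fell and 1 rose, and the count rests in part on 2 weak calls. Xrcc6, which encodes the Ku70 subunit that caps broken ends, stood at 10.4, 10.5 and 10.1 CPM with PBS and 1.23, 1.82 and 2.39 with β-elemene. It fell 5.66-fold (log2 fold change -2.50, SE 0.18, edgeR adjusted p = 2.95e-08). Prkdc, the kinase DNA-PKcs that Ku recruits, stood at 16.2, 16.1 and 18.1 CPM against 5.10, 5.73 and 5.40, and fell by 1.63 (SE 0.11, edgeR adjusted p = 1.34e-08). The groups of both genes lay far apart, with no library between them.

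Xrcc5, the Ku80 partner of Ku70, had only 52 counts under PBS and 15 under β-elemene, and fell by 1.09 on the log2 scale (SE 0.45, edgeR adjusted p = 0.042). That call was lost with DESeq2 (adjusted p = 0.111), with no filter on low counts and without β-elemene replicate 1 or 2 or PBS replicate 2 or 3. Lig4, the ligase that seals the ends, stood at 6.89, 7.23 and 6.98 CPM against 4.55, 3.91 and 6.87, and fell by 0.46 on the log2 scale (SE 0.18, edgeR adjusted p = 0.034). One β-elemene library of Lig4 thus lay just under the PBS libraries, and the call was lost with the median of ratios (edgeR adjusted p = 0.052), with DESeq2 (adjusted p = 0.064) and when any library but β-elemene replicate 3 was left out. The number of end joining genes that fell was 2 with DESeq2 and 2 without β-elemene replicate 1, β-elemene replicate 2, PBS replicate 2 or PBS replicate 3.

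Xrcc4, the scaffold of LIG4, rose, from 10.1, 8.97 and 9.55 CPM to 12.4, 14.8 and 15.3 (log2 fold change 0.57, SE 0.11, edgeR adjusted p = 3.84e-04), but with library size alone it stood at -0.07. Among 12 further end joining genes, 6 fell, 3 rose and 3 did not pass. Polm, a polymerase that fills in joined ends, rose by 2.37 on the log2 scale (SE 0.12), with 4.70 ± 0.759 CPM under PBS and 24.3 ± 2.25 under β-elemene. Dclre1c, the nuclease Artemis, rose by 1.28 (SE 0.07), with 30.1 ± 2.10 and 72.9 ± 1.48 CPM. Aplf and Tdp2, which help to process ends, fell by 1.71 and 1.09. The number that rose was 3 under the upper quartile and library size alone too, and 8 and 9 fell.

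Both mismatch repair genes among the 42 fell. Msh6, part of the complex that recognises single mispaired bases, stood at 17.0, 15.7 and 13.0 CPM with PBS and 4.67, 4.10 and 4.11 with β-elemene, and fell by 1.82 on the log2 scale (SE 0.14, edgeR adjusted p = 3.75e-08). Pms2, the endonuclease subunit that cuts the new strand, stood at 7.79, 7.61 and 7.17 CPM against 3.63, 3.32 and 3.68, and fell by 1.08 (SE 0.14). For both genes no β-elemene library came near the PBS libraries. Of the 5 other mismatch genes, 4 fell and 1 rose under each of the scalings tried. Mlh3 fell by 1.85 on the log2 scale. Msh3, part of the complex that recognises larger loops, rose by 1.67 (SE 0.13), to 14.98 ± 1.95 CPM against 4.71 ± 0.401.

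Of the 4 nucleotide excision genes 3 fell and Ercc1 did not pass, with a median of -0.75. Ddb2, a sensor of ultraviolet lesions, stood at 2.75, 2.49 and 2.11 CPM with PBS and 0.984, 0.195 and 0.797 with β-elemene, and fell by 1.87 on the log2 scale (SE 0.37, edgeR adjusted p = 4.11e-04). Acp2, which overlaps Ddb2 on the other strand, rose by 0.43 on the log2 scale. Xpc, which finds distorted helices across the genome, stood at 13.0, 13.6 and 13.3 CPM against 6.33, 7.42 and 6.62, and fell by 0.97 (SE 0.11). Xpa, which verifies the lesion, stood at 7.40, 6.10 and 6.71 CPM against 4.37, 5.08 and 4.60, and fell by 0.53 (SE 0.14, edgeR adjusted p = 0.0046). Ercc1, the partner of the XPF nuclease, stood at 6.35, 6.14 and 5.81 CPM against 6.77, 6.12 and 7.30 (log2 fold change 0.14, 95% interval -0.14 to 0.43, edgeR adjusted p = 0.333), a sign that turned with the upper quartile and library size alone.

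Of 19 further nucleotide excision genes, 12 fell, 2 rose and 5 did not pass, most of them by little, with a median of -0.20. Ercc6, the CSB protein that couples repair to transcription, fell by 1.39 on the log2 scale, to 17.5 ± 1.53 CPM against 45.9 ± 2.19, and Ercc5, the XPG nuclease, fell by 0.98. Ercc2, the XPD helicase, rose by 0.20. No rise in this list held under the upper quartile (0 up, 17 down) or library size alone (0 up, 19 down).

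Base excision repair held both the deepest fall and 2 of the 6 rises, with 8 of 10 genes falling and a median of -1.62. Ung (chromosome 5, 114130366 to 114139321), the glycosylase that removes uracil, stood at 3.10, 2.80 and 3.04 CPM with PBS and 0, 0.130 and 0.123 with β-elemene, that is, 230 counts with PBS and 4 with β-elemene. Its fitted log2 fold change was -5.06 (SE 0.45, edgeR adjusted p = 2.21e-07). The library at 0 could have held up to 3 counts, or 0.185 CPM, which is still below every PBS library. Neil3, a glycosylase for oxidised bases in single-stranded DNA, stood at 2.98, 2.25 and 2.77 CPM against 0.369, 0.326 and 0.368, and fell by 2.89 (SE 0.31).

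Ogg1, which removes 8-oxoguanine, stood at 6.66, 6.37 and 6.63 CPM with PBS and 2.15, 2.08 and 1.78 with β-elemene, and fell by 1.71 on the log2 scale (SE 0.16, edgeR adjusted p = 5.00e-07). Camk1, which overlaps Ogg1 on the other strand, fell by 0.82 on the log2 scale. Mutyh, which removes adenine opposite 8-oxoguanine, fell by 2.26 on 71 counts against 9, and by 3.19 without β-elemene replicate 1, which held 6 of the 9. Apex1, the endonuclease that cuts the baseless site, stood at 59.3, 57.3 and 57.7 CPM against 16.9, 20.2 and 17.0, and fell by 1.69 (SE 0.08). Pip4p1, listed as Tmem55b, shares most of the exonic bases of Apex1 on the other strand, and its log2 fold change was 0.14 (edgeR adjusted p = 0.066).

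The 2 rising genes of this class act at different steps. Polb (chromosome 8, 22628119 to 22653464), the polymerase that fills the gap, stood at 12.98, 14.02 and 14.97 CPM with PBS and 35.9, 33.1 and 40.6 with β-elemene, a rise of 2.61-fold (log2 fold change 1.39, SE 0.09, edgeR adjusted p = 1.14e-08). Tdg, the glycosylase that removes thymine from G-T pairs and acts in DNA demethylation, stood at 4.34, 5.21 and 6.55 CPM against 10.6, 13.3 and 9.01, a rise of 1.03 on the log2 scale (SE 0.18). The rise of Tdg has the limit of its near-identical pseudogenes given above. Parp1, which senses strand breaks and makes poly(ADP-ribose), stood at 97.2, 93.7 and 97.6 CPM against 31.9, 31.5 and 35.1, and fell by 1.55 (SE 0.06, edgeR adjusted p = 6.35e-11). Its paralogue Parp2 fell by 0.30 (SE 0.08) and Xrcc1, the scaffold of single-strand break repair, by 0.61 (SE 0.08).

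Of 13 further base excision genes, 9 fell, 3 rose and 1 did not pass, with a median of -0.37. Mbd4, a glycosylase for thymine and uracil at methylated sites, and Nthl1, a glycosylase for oxidised pyrimidines, fell by 1.89 and 1.58 on the log2 scale. Parp3, a further break-sensing member of the PARP family, rose by 1.67 (SE 0.10), to 26.0 ± 1.98 CPM against 8.16 ± 0.497, and Aptx, which clears blocked ends, rose by 0.80. Library size alone left 1 of the 13 up and 11 down. The 3 PARP genes of break repair thus went in different directions, with Parp1 down, Parp2 slightly down and Parp3 up.

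**Figure D3:**
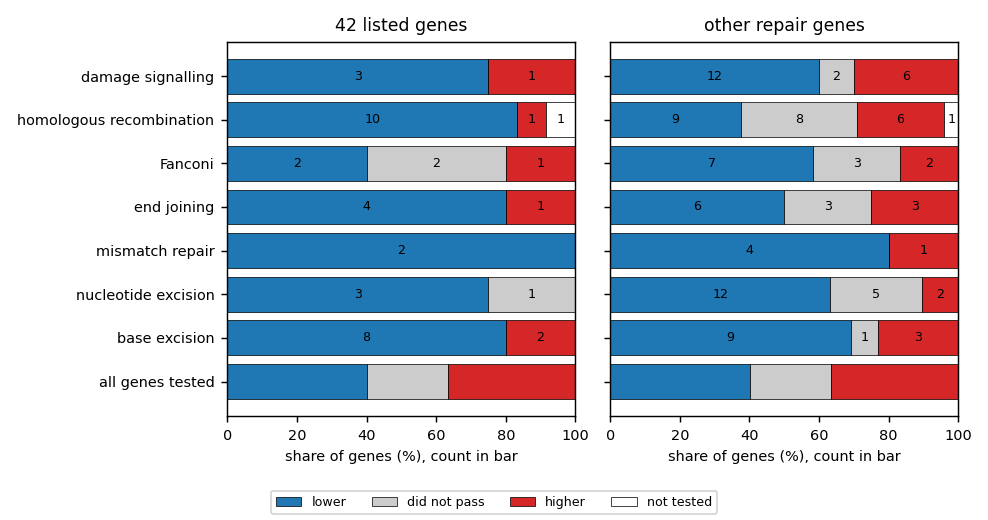
Share of genes that were lower, did not pass, were higher or were not tested, by class, for the 42 genes (left) and for 105 other genes of the same pathways (right), with counts in the bars and all 11459 tested genes in the bottom bar. Of the 42 genes 32 were lower and 6 higher, and of the 105 other genes 59 were lower and 23 higher.

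Among the other repair genes of all 7 classes, falls were more frequent than rises. Of 104 tested, 59 fell (56.7%), 23 rose (22.1%) and 22 did not pass, with a median log2 fold change of -0.36. Their difference from the 42 was not tested, since the 42 were chosen with results of these data known. The split depended on scaling, at 14 higher and 74 lower with the upper quartile and 8 higher and 88 lower with library size alone.

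Per kilobase of exon, the levels of the 42 genes spanned a wide range. With PBS the highest were Apex1 at 46.9 CPM per kb, Parp1 at 24.8, Parp2 at 12.9 and Polb at 11.6. With β-elemene the order was Polb at 30.4, Apex1 at 14.5, Parp2 at 10.5 and Xrcc4 at 9.21. Base excision genes thus led in both groups, and Polb passed Apex1 and both PARP genes. At the low end, 14 genes averaged under 1 CPM with β-elemene, 11 of which had averaged at least 1 CPM with PBS. Genes with so few counts have the widest errors here.

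**Figure D4:**
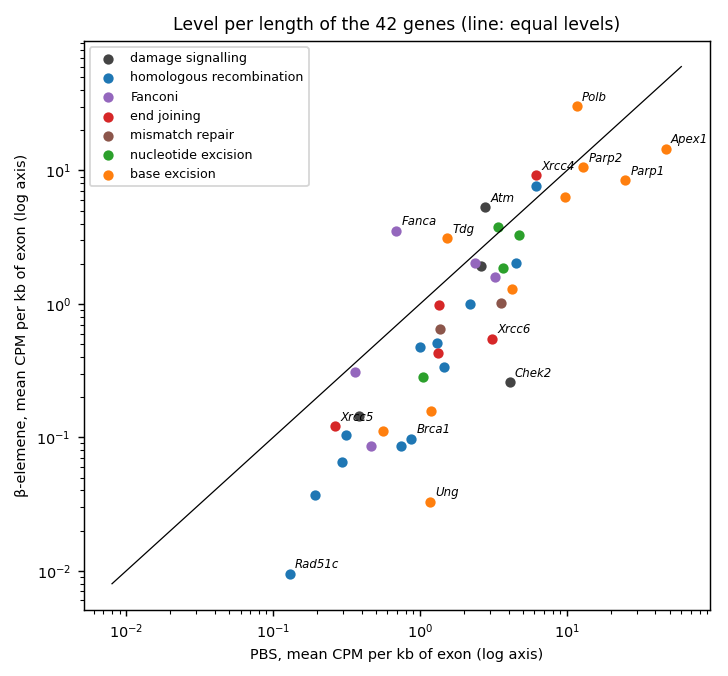
Mean level per kb of exon with β-elemene (y axis) against PBS (x axis) for the 42 genes, in CPM per kb on log axes, coloured by class, with 3 libraries behind each mean. Points under the line are lower with β-elemene. Polb, Fanca, Atm, Tdg, Xrcc4, Nbn and Ercc1, which did not pass, stand above the line, while Ung and Chek2 stand far under it.

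Ratios of 2 genes within a library do not depend on how libraries are scaled. The log2 ratio of counts (0.5 added to each) is given for 12 pairs of partners or paralogues as a description. An exact permutation test of each pair cannot give a p under 0.1 with 3 libraries against 3. No pair could therefore pass, and nothing is drawn from that test. The pairs were chosen after seeing which genes moved apart, so their separation is no further support for it. Atm over Atr went from 0.40 ± 0.10 to 1.74 ± 0.13 (SD, n = 3). Fancd2 over Fanci went from 0.49 ± 0.55 to -1.65 ± 0.24, and Fanca over Fancg from -1.04 ± 0.44 to 2.34 ± 0.35.

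The pair ratios also changed sign for Rad50 over Nbn, from 0.56 ± 0.12 to -0.90 ± 0.20, and for Msh3 over Msh6, from -1.68 ± 0.15 to 1.79 ± 0.26. Polb over Apex1 did so too, from -2.05 ± 0.13 to 1.02 ± 0.28. These counts are not corrected for length, on which the sign depends. Per kb of exon Rad50 was below Nbn in both groups (4.49 against 6.19 with PBS, 2.04 against 7.68 with β-elemene). Msh3 and Msh6, and Polb and Apex1, changed order per kb as well. Timeless over Tipin went from -1.24 ± 0.07 to 3.28 ± 0.07, the tightest of the ratios in both groups. Parp1 over Parp2 went from 1.97 ± 0.08 to 0.72 ± 0.12 and Xrcc4 over Lig4 from 0.438 ± 0.120 to 1.503 ± 0.386. Brca1 over Bard1 went from 1.64 ± 0.36 to 0.10 ± 0.71. Brca2 over Palb2 had overlapping groups, at -0.71 ± 0.42 with PBS and -1.56 ± 0.57 with β-elemene.

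**Figure D5:**
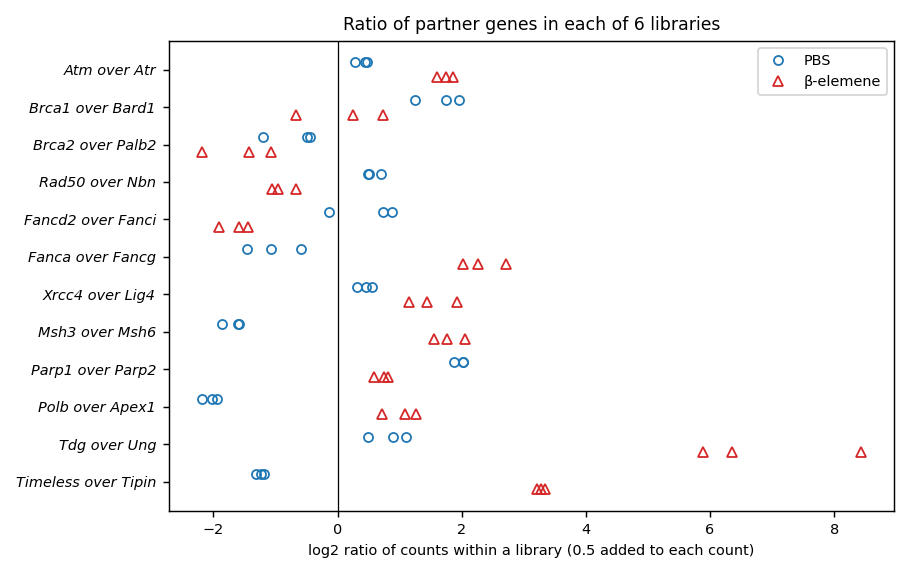
Log2 ratio of the counts of 2 genes within each library (x axis, 0.5 added to each count) for 12 pairs, with circles for the 3 PBS libraries and triangles for the 3 β-elemene libraries. Triangles and circles overlap for Brca2 over Palb2, and the triangles of Tdg over Ung rest on 0, 2 and 2 counts of Ung and on the 0.5 added, so their positions are not measured ratios.

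The E2F and pocket proteins switch replication and repair genes on and off. A list of 17 genes held these families, the E2F dimer partners, and Lin9, Lin54, Mybl2 and Foxm1, which belong to neither family. Of the 17, 10 fell, 5 rose and 2 did not pass. Within these counts Lin9 rose, Lin54 did not pass, and Mybl2 and Foxm1 fell. E2f2, an activator, fell by 3.46 on the log2 scale and Tfdp2, a dimer partner, by 2.98. Rbl1, which encodes the repressor p107, rose by 3.58 on the log2 scale (SE 0.09), to 169.0 ± 18.2 CPM against 14.1 ± 1.18, while Rb1 and Rbl2, the other pocket proteins, fell by 1.09 and 1.34. E2f5, known as a repressor bound by pocket proteins, rose by 0.76. Library size alone left 1 of the 17 up, and the upper quartile 3.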

How the data were processed

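Stranded poly(A) libraries from total RNA (RNA integrity number of at least 7) were read as paired ends, per the labels' protocols. Per the submitters' processing notes, the tools include HISAT2 2.2.1.0, and 2 build names occur, mm10 and GRCm38.p6. The deposited table holds raw counts for each gene. Which tool counted them, and with what strand setting, is not given in the sources used here. Dates stood in place of 27 symbols, which were restored through their gene identifiers.

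Genes of low count were removed by filterByExpr (count 10, total 15), and the rest scaled with TMM and tested with edgeR 4.0.16 (glmQLFit, robust, 4 residual degrees of freedom, group as the only term) in R 4.3.3 over 11459 genes. Each SE is the absolute log2 change over the root of F. The pipeline was tested on simulated counts. Levels per kb used GENCODE exon unions, and copies were sought with BLAST 2.17.0.

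The genes and lists were chosen with earlier results of these data known. All 42 genes were named. Every library's values are given for up to 4 called genes per class (mean of at least 1 CPM, largest change) plus up to 2 of opposite sign, with a few more added for their role. Up to 2 per direction were named from other lists, and some of these are not reported here. Alternatives were 3 scalings, 2 filters, DESeq2 1.42.0, limma-voom 3.58.1, a replicate block and leaving out each library.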

Additional observations from a re-analysis of the deposited data

How the results depend on the processing

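With library size alone, 2166 genes were higher and 8003 lower, 4 Fanconi genes fell, 0 recombination and 0 end joining genes rose, and 8 other repair genes rose. With the upper quartile 0 recombination genes and 14 other repair genes rose. These shifts follow from the scaling, which moved the median of all genes. DESeq2 called 2 end joining genes lower, for which the cause was not tested. The log2 fold change of Nbn turned to -0.0022 with the upper quartile and -0.32 with library size alone, that of Ercc1 to -0.17 and -0.50, and that of Xrcc4 to -0.067 with library size alone. Leaving out 1 library gave 2 to 4 falling end joining genes, 30 to 33 falling and 6 to 6 rising genes among the 42. For single genes, 550 of 572 values under the alternatives kept their direction and side of the threshold. Another 14 kept their direction but lost the call (all of Xrcc5 and Lig4), and 3 gained it in the same direction. The other 5 turned sign (Nbn, Ercc1 and Xrcc4) and are counted apart from these lost and gained calls. Where they turned, Nbn and Xrcc4 were no longer called higher, and library size alone called Nbn and Ercc1 lower. The adjusted p of Xrcc5 ranged from 0.0024 to 0.155 and that of Lig4 from 4.53e-05 to 0.165. With a replicate block 31 of the 42 genes fell and 6 rose, and Xrcc5 was the call lost (adjusted p = 0.076). Deviations of same-numbered libraries correlated at -0.02, 0.08 and 0.03, so no pairing by number was seen in the values. Whether same-numbered libraries share a culture or animal is not stated in the labels. Depth limits the genes under 1 CPM, where a library with 0 counts could have held up to 3.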

Other observations

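Genes of damage tolerance and direct reversal, which let replication pass a lesion or undo it without excision, were mostly lower with β-elemene. Of 9 genes, 5 fell, 1 rose and 3 did not pass, with a median log2 fold change of -0.82. Rev3l, the catalytic subunit of polymerase zeta, fell from 16.4 ± 1.01 to 6.02 ± 0.645 CPM (SD, n = 3; log2 fold change -1.44, SE 0.11), and Alkbh2, which removes alkyl groups from double-stranded DNA, fell by 1.65. Alkbh3, which does so in single-stranded nucleic acid, rose by 0.60 (SE 0.08), a rise that library size alone removed (0 up, 8 down). Mgmt, which repairs alkylated guanine, did not pass, at 3.32 ± 0.127 against 3.20 ± 0.462 CPM.

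Known p53 targets went both ways, with 5 of 17 tested genes rising (29.4%), 8 falling (47.1%) and 4 not passing, and a median of -0.04. Over all genes tested, 36.6% rose and 40.2% fell, with a median of -0.06, so this split is near that of genes in general. Btg2, an antiproliferative gene, and Mdm2, the p53 ligase, rose by 2.58 and 2.03 on the log2 scale, and Sesn1, a stress-response gene, and Phlda3, an inhibitor of AKT signalling, fell by 3.82 and 3.26. Trp53 itself had 48.3 ± 1.86 CPM under PBS and 31.5 ± 1.36 under β-elemene (log2 fold change -0.62, SE 0.06). The median of ratios gave 7 up and 8 down, and library size alone 5 up and 11 down.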
